A study of Rattus norvegicus with 56 samples.

Results

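The deposited tables of a rat model of ventricular septal defect (VSD) list 682 mature microRNAs. Reported here are 5 of them that are made from imprinted genes of fetal growth. They are miR-483-3p and miR-483-5p, both cut from a hairpin within Igf2, miR-675-3p and miR-675-5p, both cut from a hairpin within H19, and miR-335, whose host gene is Mest. The 5 were taken by name, without the species prefix, and not by their values, and all 5 were listed in each tissue. The study compared Sprague-Dawley fetuses of dams given dimethadione (DMO), a teratogen that causes heart defects, by oral gavage with fetuses of dams given distilled water (NC group). The DMO-exposed fetuses formed a VSD group, which had a septal defect without malformation of the major vessels, and a non-VSD group, whose septum was intact. Exposed fetuses with other visible abnormalities had been left out before either group was chosen. All were collected on embryonic day 19. Small RNA was sequenced from paraffin-embedded fetal hearts and from amniotic fluid supernatant, with 7 samples in each of the 3 groups, and from maternal serum, with 7 NC and 7 VSD samples, which makes 56 samples in all. The labels do not give the litter or dam of a sample, so the p-values below measure the spread between these samples, some of which may share a dam.

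Imprinted genes are expressed from the copy inherited from a given parent. Igf2, expressed from the paternal copy, encodes a fetal growth factor, and its neighbour H19, expressed from the maternal copy, makes a long noncoding RNA that is abundant in fetal tissue and is silenced in most tissues after birth. The H19 transcript is also the precursor of miR-675, which is known to restrain growth of the placenta, and H19 RNA carries sites for let-7 microRNAs. Mest is expressed from the paternal copy in mesodermal tissue of the embryo, and miR-335 is made from its intron. A hairpin is cut into 2 arms, 5p and 3p, and usually the arm that is loaded into Argonaute is kept and the other is degraded.

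The mature sequences are shown with the seed, bases 2 to 8, in capitals, since the seed sets which messenger RNAs a microRNA pairs with. They were taken from RefSeq on the GRCr8 build, which matched 4 of the 5 members, and they are written 5′ to 3′.
miR-483-3p: cACUCCUCcccucccgucuugu
miR-483-5p: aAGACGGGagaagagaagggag
miR-675-3p: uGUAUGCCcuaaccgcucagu
miR-675-5p: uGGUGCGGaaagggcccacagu
miR-335 is named only, and its arm is not given in the tables. Each of the 4 printed seeds is carried by that microRNA alone among the 693 mature rat sequences of the reference, so the arms of a hairpin do not share a seed. The miR-483 arms lie on the minus strand at chr1:207247865-207247886 (3p) and chr1:207247903-207247924 (5p), inside Igf2 (chr1:207243873-207261263). The miR-675 arms lie on the same strand at chr1:207161766-207161786 (3p) and chr1:207161800-207161821 (5p), inside H19 (chr1:207160175-207162851), and the hairpins are 86.0 kb apart. Mest lies on another chromosome, at chr4:60321814-60332288. The hairpins are printed with both arms in capitals, because the balance between the arms is a result of its own.
Mir483: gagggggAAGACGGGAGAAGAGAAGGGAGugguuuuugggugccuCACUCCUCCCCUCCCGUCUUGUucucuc
Mir675: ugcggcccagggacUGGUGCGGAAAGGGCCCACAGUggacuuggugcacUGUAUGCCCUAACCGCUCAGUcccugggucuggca

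The depth of a sample, as its total of listed counts, ran from 1694811 to 9371130 in myocardium, from 78188 to 331787 in amniotic fluid and from 147609 to 581350 in maternal serum. Levels of the members are given in CPM, which are counts scaled to a library total of 1000000. Library sizes were adjusted by TMM, a normalization that takes most microRNAs as unchanged. Summed marker levels, ranks among all listed microRNAs and limits for a count of 0 use library totals without TMM, so marker and member CPM are scaled differently. In the shallowest library of each tissue, a count of 0 (limit of 3 counts, counting error only) allows a level of up to 1.77 CPM in myocardium, 38.4 CPM in amniotic fluid and 20.3 CPM in serum. Marker microRNAs matched the labelled tissues in the NC group. The summed level of 8 muscle markers had a median of 81239 CPM in myocardium against 4050 CPM in amniotic fluid and 10247 CPM in serum, and that of 8 epithelial markers a median of 119855 CPM in amniotic fluid. Replicate 2 of the NC myocardium group stood apart within its group, so the myocardial results are also given without it. It had the lowest summed muscle markers of the group, 16579 CPM, and the highest epithelial markers, 17532 CPM. Some VSD hearts were alike, with 19902 CPM of muscle and 21155 CPM of epithelial markers in replicate 1. VSD replicate 4 had 28289 and 15649 CPM, and VSD replicate 5 had 58922 and 13727 CPM, in the same order. The TruSeq kit and a HiSeq instrument were used for myocardium and serum, while amniotic fluid libraries came from the QIAseq kit and a NovaSeq instrument. Kit and tissue cannot be told apart when a level in amniotic fluid is set beside the others. In tissue and fluid alike, fewer cells of a type and less RNA per cell cannot be told apart either.

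In the NC group, miR-483-5p was among the most abundant microRNAs of amniotic fluid, while both miR-675 arms were scarce in every tissue. In NC myocardium, miR-335 had the highest median of the members, 534 CPM (rank 108 of 661 listed microRNAs by median), followed by miR-483-3p at 461 CPM and miR-483-5p at 257 CPM. The medians of miR-675-5p and miR-675-3p were 52.0 CPM and 44.7 CPM. The levels of miR-335 and miR-483-3p overlapped in NC myocardium, as did those of miR-675-5p and miR-675-3p, and every NC library had more of the first 3 members than of either miR-675 arm. In NC amniotic fluid, miR-483-5p had a median of 33961 CPM, which placed it 7th of 523 listed microRNAs. There, miR-335 (median 2204 CPM) and miR-483-3p (median 2165 CPM) overlapped, miR-675-3p had a median of 170 CPM, and miR-675-5p, with 87 counts over 7 libraries, a median of 46.0 CPM. Set beside the myocardial medians, the amniotic ones were 132 times as high for miR-483-5p, 4.70 times for miR-483-3p, 4.13 times for miR-335 and 3.8 times for miR-675-3p. Those ranges overlapped between the tissues for the miR-675 arms and were apart for the other members.

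**Figure D1:**
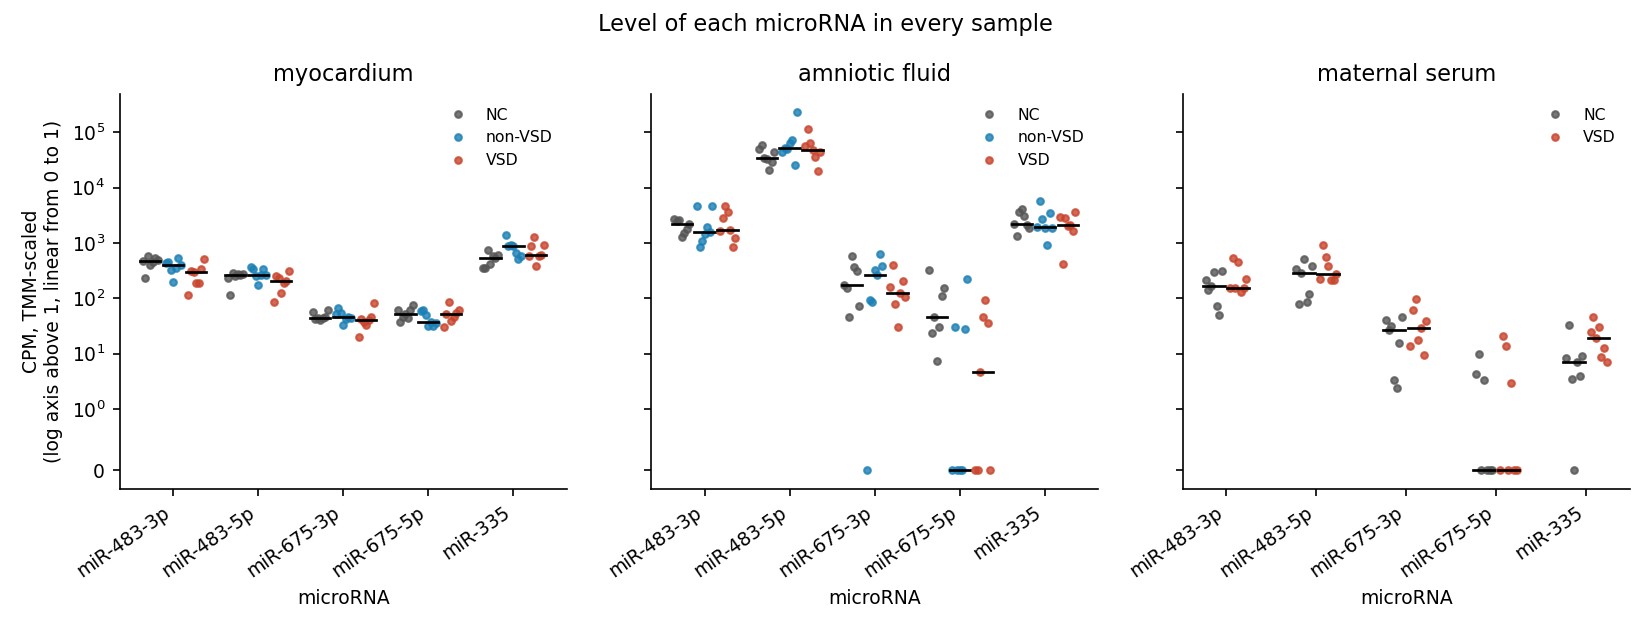
Level of each member in every sample, in CPM scaled by TMM on an axis that is logarithmic above 1 CPM and linear below it, with a panel for each tissue, points for samples and black lines for group medians. In amniotic fluid miR-483-5p lies between 20227 and 236068 CPM, above every other member, and miR-675-5p reaches 0 in several DMO-exposed libraries.

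Maternal serum held both miR-483 arms and few counts of the other members. NC myocardium and NC serum shared the library kit and sequencer, but RNA came from wax blocks in the former and from fluid in the latter, with different extraction kits, so tissue, fixation and extraction cannot be told apart. They were compared by edgeR's quasi-likelihood test with Benjamini-Hochberg adjustment over the 382 microRNAs tested. The median log2 fold change of these 382 was 0.57, toward higher values in myocardium. miR-335 ranged from 0 to 33.3 CPM in NC serum (median 7.13 CPM), with 33 counts in all, against 346 to 732 CPM in myocardium. It was higher in myocardium by 5.13 on the log2 scale (SE 0.54, 95% interval 4.0 to 6.27, adjusted p = 1.32e-07). miR-675-5p, with 9 counts over the 7 NC serum libraries and none in 4 of them, was higher in myocardium by 3.70 (SE 0.60, adjusted p = 2.25e-05), a value that depends on the prior count. For miR-675-5p and miR-335 the ranges of the 2 tissues did not overlap. miR-483-3p ranged from 50.1 to 313 CPM in NC serum (median 164 CPM) and was higher in myocardium by 0.90 (SE 0.34, adjusted p = 0.0236). That call was lost without NC myocardium replicate 3 (0.69, adjusted p = 0.0930) or replicate 4 (0.75, adjusted p = 0.0737), and under the other settings the value rose to as much as 1.73. miR-483-5p ranged from 78.3 to 511 CPM (median 290 CPM) and miR-675-3p from 2.38 to 45.6 CPM (median 26.7 CPM) in NC serum, and neither passed the test against myocardium (adjusted p = 0.219 and 0.246). So 3 of 5 members were called between these tissues, where 78.0% of all microRNAs tested were called. DESeq2 called 4, with miR-675-3p at 0.76 (adjusted p = 0.0491).

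Each DMO group was then compared with the NC group in myocardium, to ask whether the growth-imprinted microRNAs differed in exposed hearts with and without a defect. Both comparisons use the same 7 NC samples. At an adjusted p under 0.05, 0 of the 5 members were called in VSD myocardium and 0 in non-VSD myocardium, against 0.426% and 0.219% of all 469 and 456 microRNAs tested. By the threshold of the study, which asks for an unadjusted p under 0.05 together with a fold change of 2 or more, or of 0.5 or less, 0 of 5 were called in each, against 6.82% and 4.17%. At an unadjusted p under 0.05 alone, 1 member differed in each comparison, miR-483-3p in VSD and miR-335 in non-VSD myocardium. limma also called 0 members in both, while DESeq2 called 0 in VSD and 1 in non-VSD myocardium. No member had DMO-exposed levels wholly apart from NC levels, a pattern seen in 0.64% (VSD) and 1.32% (non-VSD) of the microRNAs tested.

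**Figure D2:**
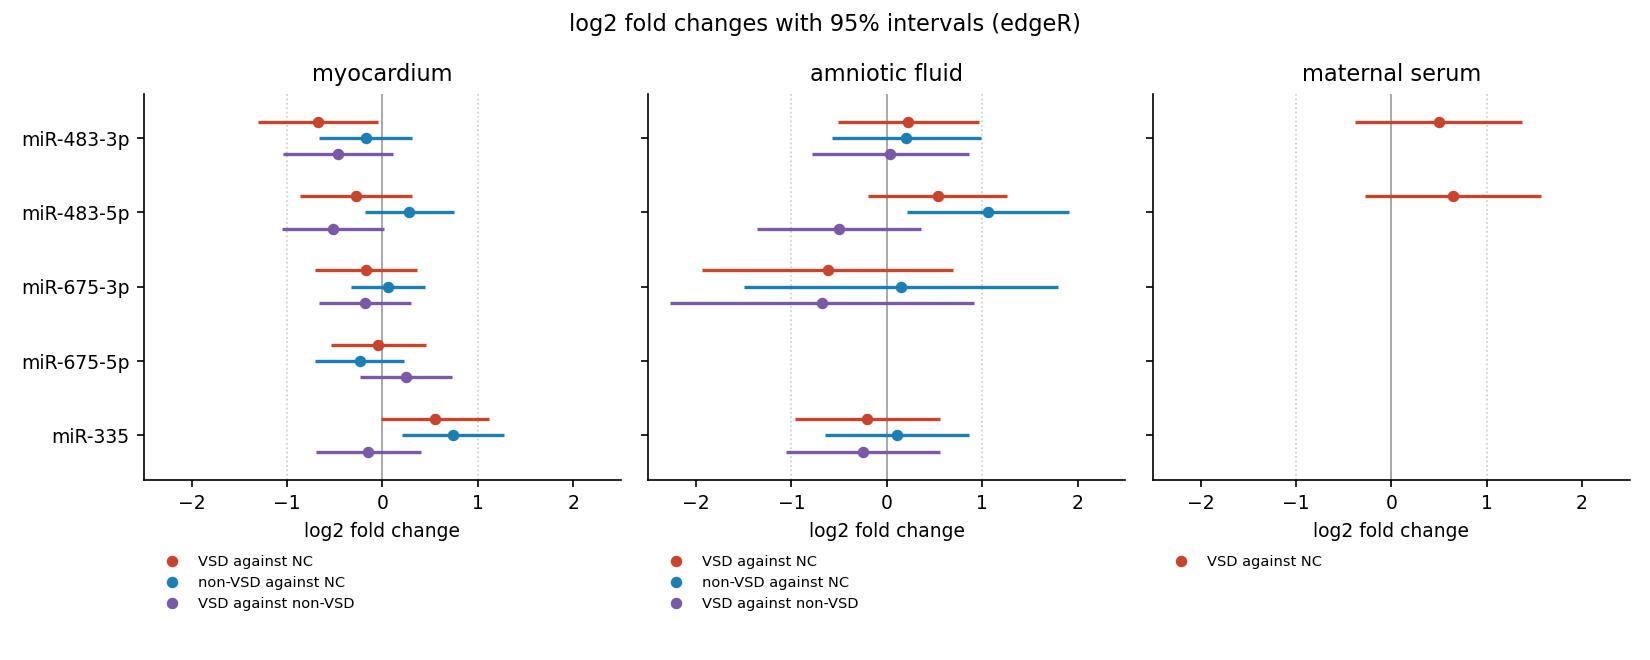
Log2 fold change of each tested member by edgeR's quasi-likelihood test, with 95% intervals, for VSD against NC, non-VSD against NC and VSD against non-VSD, in each tissue, with dotted lines at a fold change of 2 in either direction. The intervals that leave out 0 are those of miR-483-3p in VSD myocardium, miR-335 in non-VSD myocardium and miR-483-5p in non-VSD amniotic fluid, and no member was called after adjustment over all microRNAs.

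miR-335 had higher values in most DMO-exposed hearts, without passing the adjusted test. Its level was 346 CPM in the lowest NC library, 534 CPM at the median and 732 CPM in the highest. In the non-VSD group it was 514, 874 and 1395 CPM, and in the VSD group 387, 600 and 1296 CPM, in the same order. In each DMO group 6 of 7 libraries lay above the NC median, and 4 non-VSD and 3 VSD libraries lay above every NC library, so the groups overlapped. Against NC, the log2 fold change was 0.74 in the non-VSD group (SE 0.25, 95% interval 0.21 to 1.27, adjusted p = 0.126 by edgeR's quasi-likelihood test). It was 0.55 in the VSD group (SE 0.27, adjusted p = 0.266). With both DMO groups against NC in a fit of all 21 hearts, where 8.49% of 483 microRNAs were called at an adjusted p under 0.05 and 4.76% by the threshold of the study, miR-335 was higher by 0.62 (SE 0.24, adjusted p = 0.104). No member was called by either rule in that fit, and miR-335 alone had an unadjusted p under 0.05.

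The call on miR-335 depended on the scaling, on the tool and on single libraries. By DESeq2 the non-VSD difference was 0.71 with an adjusted p of 0.0423. Scaling by library size only moved the median of all microRNAs upward by 0.37 in VSD, 0.20 in non-VSD and 0.31 in all DMO-exposed myocardium on the log2 scale. Under that scaling miR-335 was called in VSD (0.96, adjusted p = 0.0373), non-VSD (0.98, adjusted p = 0.0280) and all DMO-exposed hearts (0.97, adjusted p = 0.00735). It was also called in the latter without VSD replicate 4 (0.76, adjusted p = 0.0432). The highest VSD library was replicate 3, the shallowest of the tissue, and without it the VSD difference was 0.27 (adjusted p = 0.581). Without NC replicate 2 the differences were 0.44 (VSD, adjusted p = 0.283) and 0.67 (non-VSD, adjusted p = 0.140). The VSD and non-VSD groups differed by -0.15 (SE 0.27, 95% interval -0.70 to 0.41, adjusted p = 0.783), which leaves room for a difference of either sign.

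**Figure D3:**
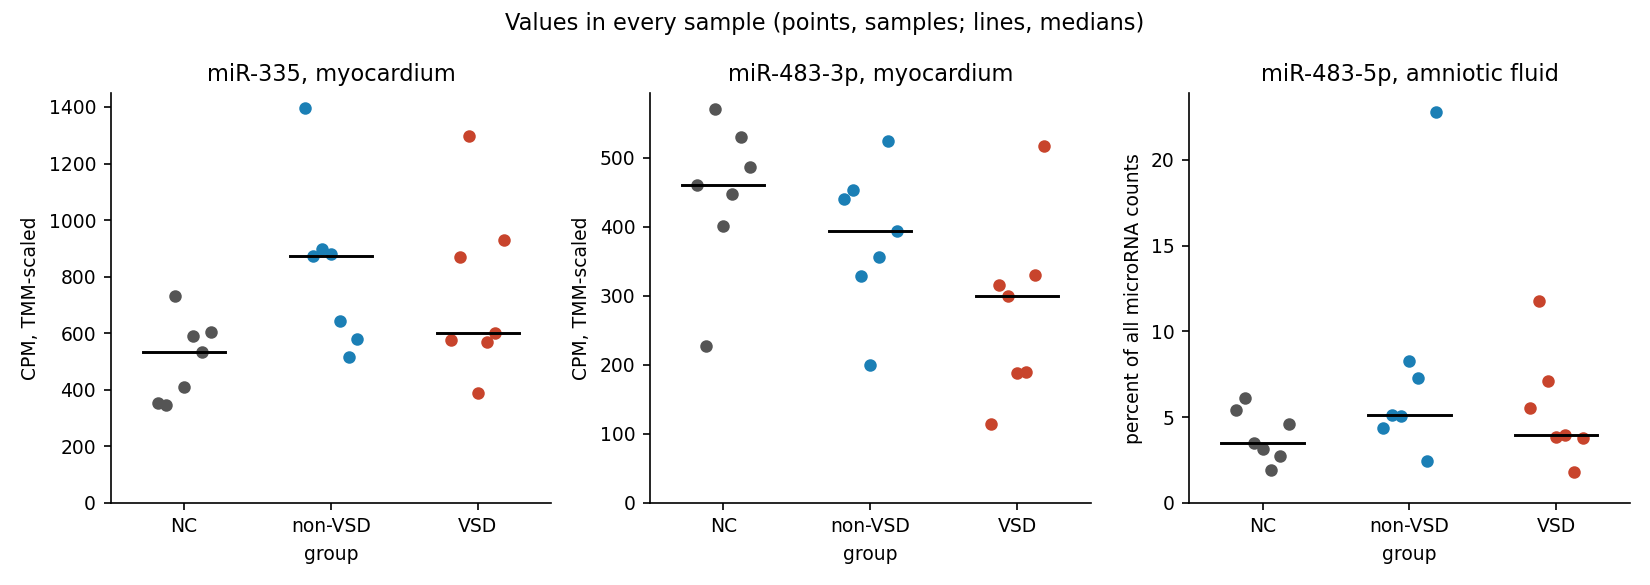
miR-335 and miR-483-3p in myocardium, in CPM scaled by TMM, and miR-483-5p in amniotic fluid, as a percentage of the library, with points for samples and lines for group medians. The groups overlap in each panel, and 1 non-VSD amniotic fluid library, at 22.8%, lies far above the rest.

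miR-483-3p, whose host Igf2 encodes the growth factor, had lower values in most VSD hearts, also without passing the adjusted test. It ranged from 228 to 571 CPM in the NC group (median 461 CPM), from 199 to 525 CPM in the non-VSD group (median 394 CPM) and from 115 to 517 CPM in the VSD group (median 300 CPM). In the VSD group 6 of 7 libraries lay below the NC median and 3 lay below every NC library, while the others fell within the NC range. The log2 fold change was -0.68 (SE 0.30, 95% interval -1.31 to -0.05, adjusted p = 0.211) in VSD and -0.18 (SE 0.23, adjusted p = 0.773) in non-VSD myocardium. Without NC replicate 2, which held the lowest NC level of both miR-483 arms, the VSD value was -0.82 (adjusted p = 0.0662). With each library of either group left out in turn, it ran from -0.90 to -0.57, with adjusted p from 0.0662 to 0.351. VSD and non-VSD hearts differed by -0.47 (SE 0.28, 95% interval -1.05 to 0.11, adjusted p = 0.466). Marker levels differed in the same hearts. The summed muscle markers had a median of 58922 CPM in VSD against 81239 CPM in NC hearts, and the epithelial markers 3385 CPM against 1084 CPM, with all 8 epithelial markers at a positive log2 fold change (median 1.2) and none called. The 3 VSD libraries below every NC library were replicates 1, 4 and 5. They also had the highest summed epithelial markers of the VSD group, 21155, 15649 and 13727 CPM. The part of these markers in the level of miR-483-3p was not tested.

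With TMM scaling, the other arm of the hairpin, miR-483-5p, also had lower values in most VSD hearts, but not in non-VSD hearts. Its levels were 114, 257 and 284 CPM at the lowest, median and highest NC library, 170, 265 and 367 CPM in the non-VSD group, and 83.6, 202 and 305 CPM in the VSD group. In the non-VSD group 3 libraries lay above every NC library, and in the VSD group 6 of 7 lay below the NC median. The log2 fold changes were 0.28 in non-VSD (SE 0.22, adjusted p = 0.588) and -0.28 in VSD myocardium (SE 0.28, adjusted p = 0.582, and 0.12 with scaling by library size only). Of the members, it had the smallest unadjusted p between VSD and non-VSD hearts, at -0.52 (SE 0.26, adjusted p = 0.439). In that comparison 0 members were called by either rule, against 0% of 483 microRNAs at an adjusted p under 0.05 and 5.18% by the threshold of the study, and 0 members had an unadjusted p under 0.05. DESeq2 and limma called 0 members there too.

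The miR-675 arms, from the H19 transcript, were near their NC levels in both DMO groups. miR-675-3p ranged from 39.8 to 60.1 CPM in the NC group (median 44.7 CPM), from 32.3 to 67.1 CPM in the non-VSD group (median 45.5 CPM) and from 19.8 to 80.1 CPM in the VSD group (median 40.3 CPM). miR-675-5p ranged from 36.4 to 73.9 CPM (median 52.0 CPM), from 31.3 to 62.3 CPM (median 37.6 CPM) and from 30.2 to 86.6 CPM (median 50.9 CPM), in the same order. The VSD libraries spread on both sides of the NC range for both arms. The 4 log2 fold changes against NC lay between -0.24 (SE 0.22, miR-675-5p in non-VSD) and 0.06 (SE 0.18, miR-675-3p in non-VSD), with adjusted p between 0.643 and 0.932. In VSD myocardium they were -0.17 (SE 0.25) for miR-675-3p and -0.04 (SE 0.23) for miR-675-5p, and both were positive, at 0.19 and 0.34, with scaling by library size only. The intervals in VSD myocardium ran from -0.70 to 0.37 for miR-675-3p and from -0.54 to 0.45 for miR-675-5p, so a doubling or halving of either arm lay outside them.

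The balance between the arms of miR-483 differed between NC and non-VSD hearts. This ratio is taken within a library, so it does not depend on the scaling. In the NC group the 5p arm was at 0.485, 0.501 and 0.616 of the 3p arm in the lowest, median and highest library. In the non-VSD group the ratio was 0.650, 0.733 and 0.853, and in the VSD group 0.589, 0.727 and 1.0. Every non-VSD library lay above every NC library, and 5 of 7 VSD libraries did, with the other 2 within the NC range. The mean log2 ratio was -0.90 ± 0.15 (SD, n = 7) in the NC group, -0.43 ± 0.14 (SD, n = 7) for non-VSD hearts and -0.47 ± 0.26 (SD, n = 7) for VSD hearts. The non-VSD difference was 0.47 (SE 0.08, two-sided exact permutation test, p = 0.000583, the smallest that 3432 groupings allow, adjusted p = 0.0193 over 199 hairpins with both arms counted). It stayed under an adjusted p of 0.05 with each library left out in turn, at 0.44 to 0.51, and without NC replicate 2 it was 0.46 (adjusted p = 0.0193). The VSD difference was 0.43 (SE 0.11, exact permutation p = 0.00291, adjusted p = 0.0696), and 0.42 (adjusted p = 0.0850) without NC replicate 2. It was called without VSD replicate 6 (0.48, adjusted p = 0.0422).

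Shifts of arm balance were common among the hairpins of these hearts. In the non-VSD comparison 7.54% of the 199 hairpins were called, 22.6% had an unadjusted p under 0.05 and 3.02% had groups that did not overlap, and miR-483 ranked 74th by the size of its difference. In the VSD comparison 0% were called and 22.1% had an unadjusted p under 0.05. The VSD and non-VSD ratios of miR-483 differed by -0.04 (exact permutation p = 0.733), where 8.04% of hairpins had an unadjusted p under 0.05 and 0% were called. The summed levels of 5 red blood cell markers overlapped between the groups and differed at the median, with a median of 29068 CPM in the NC group (range 3267 to 73089 CPM), 7705 CPM in the non-VSD group (range 3051 to 34887 CPM) and 8906 CPM in the VSD group (range 4767 to 24232 CPM), none of the 5 at 0. All 5 fell in the fit of all DMO-exposed hearts against NC (adjusted p under 0.05, median log2 fold change -2.03). From the lists of 4 white blood cell and 8 muscle markers, miR-142-5p and miR-206-3p fell there too. The summed white blood cell markers had medians of 1255, 584 and 694 CPM in the NC, non-VSD and VSD groups. The summed muscle markers did not go 1 way, with medians of 81239, 85960 and 58922 CPM in the same order. The part of these markers in the miR-335 and miR-483 results was not tested. For miR-675 the 5p to 3p ratio had a median of 1.08 in NC (range 0.870 to 1.37), 0.923 in non-VSD (range 0.690 to 1.14) and 1.2 in VSD hearts (range 0.748 to 2.35). Its groups overlapped, and the differences from NC were -0.30 in non-VSD (exact permutation p = 0.0297, adjusted p = 0.164) and 0.19 in VSD (exact permutation p = 0.409).

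**Figure D4:**
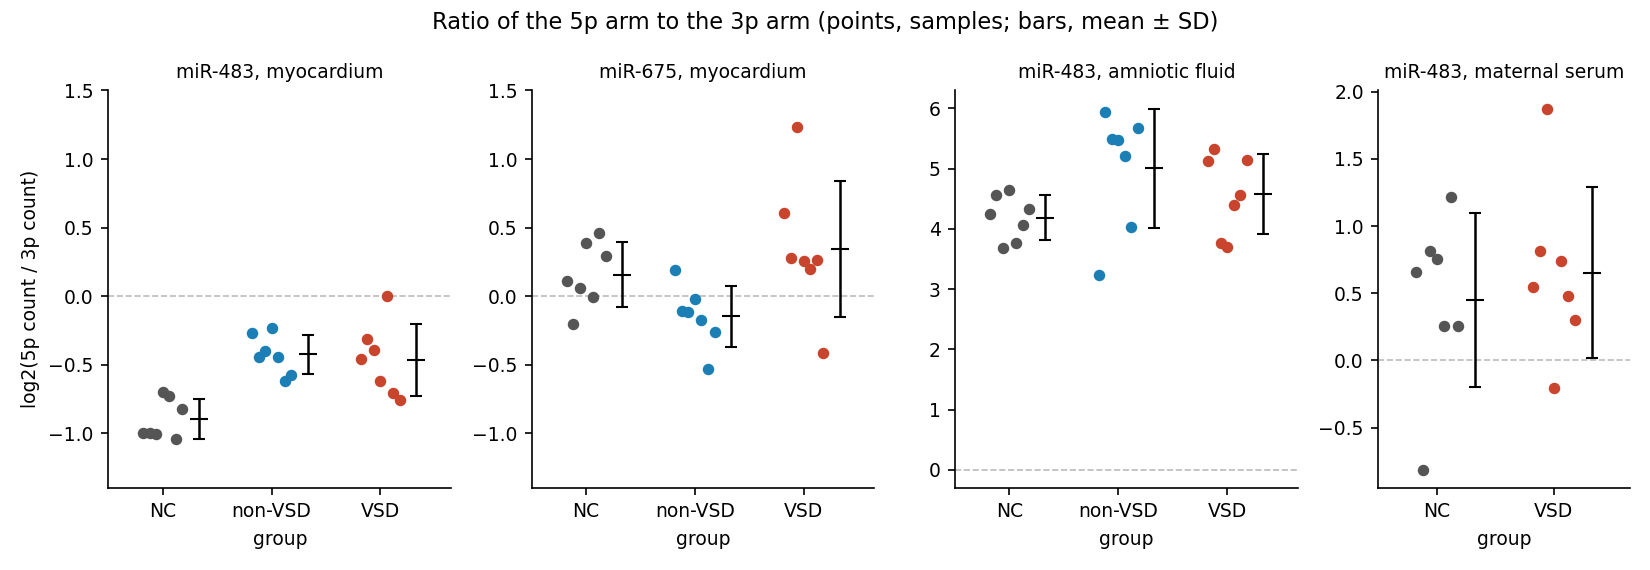
Log2 of the 5p over the 3p count in every library for miR-483 and miR-675 in myocardium and for miR-483 in amniotic fluid and maternal serum, with bars for the mean ± SD of a group and a dashed line where the arms are equal. The 7 non-VSD hearts lie above all 7 NC hearts for miR-483, and in amniotic fluid every library lies far above the dashed line.

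The arm that dominated differed by tissue. Over all NC hearts, 34.5% of miR-483 counts were 5p, against 94.6% in NC amniotic fluid and 58.0% in NC serum. In amniotic fluid the 5p to 3p ratio had a median of 19 in NC libraries (range 12.9 to 25.1), so that the 5p arm outnumbered the 3p arm in each of them. Tissue and kit cannot be told apart for the amniotic libraries, while NC serum, made with the kit of the hearts, had a median ratio of 1.58 (range 0.569 to 2.32). For miR-675 the NC amniotic libraries went both ways, with a 5p to 3p ratio from 0.0189 to 2.08. The 5p arm had more counts in replicates 1 and 7, as many in replicate 3 and fewer in the other 4, and 24.1% of the summed counts were 5p. In NC serum 11.5% of the few summed counts were 5p (exact binomial 95% interval 5.41 to 20.8%).

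In amniotic fluid, miR-483-5p was the member that stood out in the DMO-exposed groups. Its level was 20777, 33961 and 58612 CPM at the lowest, median and highest NC library. In the non-VSD group it was 25716, 51626 and 236068 CPM, and in the VSD group 20227, 47000 and 115168 CPM. In each DMO group 6 of 7 libraries lay above the NC median, and 3 non-VSD and 2 VSD libraries lay above every NC library. The groups overlapped for every member, while 2.07% of the microRNAs tested in non-VSD fluid and 0% in VSD fluid had groups that did not. As a share of the library it had a median of 3.46% in NC, 5.10% in non-VSD and 3.96% in VSD fluid, and it made up 22.8% of non-VSD replicate 7 (exact binomial 95% interval 22.6 to 23.1%) and 11.8% of VSD replicate 2 (11.6 to 12%). Those 2 libraries had the lowest summed muscle markers of their groups, 392 CPM and 590 CPM, against medians of 18370 CPM and 19573 CPM, and summed epithelial markers of 117361 CPM and 155666 CPM. Markers also differed between the groups. In non-VSD against NC fluid the summed red blood cell markers had a median of 64585 CPM against 21821 CPM, and all 4 that were tested met the threshold of the study, 2 of them at an adjusted p under 0.05. The white blood cell markers had a median of 9476 CPM against 2889 CPM and the epithelial markers 73113 CPM against 119855 CPM, with none called at an adjusted p under 0.05. The part of these markers in the level of miR-483-5p was not tested.

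Against NC, the log2 fold change of miR-483-5p was 1.06 in non-VSD fluid (SE 0.41, 95% interval 0.21 to 1.91, adjusted p = 0.126 by edgeR's quasi-likelihood test), a 2.09-fold difference that met the threshold of the study. It was the only 1 of the 4 members tested to do so, in a comparison where 12.4% of 242 microRNAs met that threshold and 4.96% were called at an adjusted p under 0.05, 0 of them members. The call rested on single libraries. Without non-VSD replicate 7 the value was 0.48 (adjusted p = 0.389), and without NC replicate 6 it was 0.98, just under a fold change of 2. DESeq2 gave 1.2 with an adjusted p of 0.0389, and limma gave 0.82. In VSD fluid the value was 0.53 (SE 0.35, 95% interval -0.20 to 1.26, adjusted p = 0.50). The VSD and non-VSD groups differed by -0.50 (SE 0.42, adjusted p = 0.835), and by 0.09 without non-VSD replicate 7. By its own test, the paper had already listed miR-483-5p as higher in non-VSD than in NC fluid, the only member in its lists.

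The other members of amniotic fluid overlapped between the groups. In the VSD comparison 0 of 4 members were called by either rule and 0 had an unadjusted p under 0.05, against 0% of 245 microRNAs called at an adjusted p under 0.05 and 6.94% by the threshold of the study. With both DMO groups against NC, 0 of 4 members were called by either rule, against 0.733% and 8.06% of 273, and miR-483-5p came nearest (0.76, SE 0.37, adjusted p = 0.308). Between VSD and non-VSD fluid 0 of 4 were called, against 0% at an adjusted p under 0.05 and 3.3% by the threshold of the study, and DESeq2 and limma called 0 members in these 3 comparisons. miR-335 ranged from 1320 to 4057 CPM in NC (median 2204 CPM), from 901 to 5818 CPM in non-VSD (median 1897 CPM) and from 420 to 3598 CPM in VSD fluid (median 2130 CPM). Its lowest value was VSD replicate 2, and the log2 fold changes were -0.20 (SE 0.36, adjusted p = 0.801) in VSD and 0.10 (SE 0.36, adjusted p = 0.900, and -0.02 by limma) in non-VSD fluid. miR-483-3p ranged from 1278 to 2667 CPM in NC (median 2165 CPM), from 845 to 4630 CPM in non-VSD (median 1567 CPM) and from 854 to 4653 CPM in VSD fluid (median 1676 CPM). Its DMO-exposed libraries spread beyond the NC range on both sides, and its log2 fold changes were 0.23 in VSD (SE 0.35, adjusted p = 0.799) and 0.21 in non-VSD fluid (SE 0.37, adjusted p = 0.865, and -0.01 by limma). The ratio of the miR-483 arms reached 44.3 at the median of the non-VSD group (range 9.44 to 61.0) and 23.6 in the VSD group (range 13.0 to 40.2). With 5 of 7 non-VSD libraries above every NC library, the mean log2 ratio of that group was 0.82 higher than NC (SE 0.40, exact permutation p = 0.0641, adjusted p = 0.510 over 82 hairpins), where 0% of hairpins were called and 7.32% had an unadjusted p under 0.05. In the VSD group it was 0.39 higher (SE 0.29, exact permutation p = 0.192), where 0% were called and 2.44% had an unadjusted p under 0.05.

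The miR-675 arms had few counts in amniotic fluid. miR-675-3p ranged from 46.0 to 570 CPM in NC (median 170 CPM), from 0 to 627 CPM in non-VSD (median 259 CPM) and from 29.9 to 396 CPM in VSD fluid (median 125 CPM). Its log2 fold changes were -0.62 in VSD (SE 0.63, 95% interval -1.94 to 0.70, adjusted p = 0.688) and 0.15 in non-VSD fluid (SE 0.79, adjusted p = 0.956, and -0.66 by limma). The non-VSD interval, -1.50 to 1.80, holds both a doubling and a halving. miR-675-5p did not pass the filter on low counts in any comparison. It had 87 counts over the NC libraries, each of which held at least 1, 32 over the non-VSD libraries, with 4 at 0, and 26 over the VSD libraries, with 3 at 0. In the libraries at 0 it was not detectable at this depth.

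Maternal serum, from the dams rather than the fetuses, was compared between VSD and NC. The VSD sera came from dams given DMO and there was no non-VSD serum, so exposure and defect cannot be told apart here. miR-483-3p had a median of 164 CPM in NC (range 50.1 to 313 CPM) and 154 CPM in VSD serum (range 128 to 528 CPM), and miR-483-5p of 290 CPM (range 78.3 to 511 CPM) and 277 CPM (range 209 to 932 CPM). For each arm 2 VSD sera lay above every NC serum and 4 of 7 lay below the NC median, so the groups overlapped. By edgeR's quasi-likelihood test the log2 fold changes were 0.50 for miR-483-3p (SE 0.42, 95% interval -0.38 to 1.37, adjusted p = 0.640) and 0.65 for miR-483-5p (SE 0.44, 95% interval -0.27 to 1.57, adjusted p = 0.543). Of the 2 members tested, 0 were called by either rule and 0 had an unadjusted p under 0.05, against 0% of 219 microRNAs at an adjusted p under 0.05 and 4.57% by the threshold of the study, and DESeq2 and limma called 0 members. The other 3 were under the filter. In VSD serum, miR-335 had 37 counts (median 19.3 CPM, range 7.01 to 46.6 CPM), miR-675-5p had 10 counts, with 4 libraries at 0, and miR-675-3p ranged from 9.37 to 96.6 CPM (median 29.1 CPM). The ratio of the miR-483 arms had a median of 1.46 in VSD serum and did not differ from that of NC serum beyond the spread (0.20 on the log2 scale, SE 0.34, exact permutation p = 0.580), in a comparison where 8.79% of 91 hairpins had an unadjusted p under 0.05 and 0% were called.

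The differences from NC were also compared between tissues, by permuting group labels within each tissue, with adjustment over all microRNAs tested in both. For the VSD group, miR-483-3p differed from NC by -0.77 in myocardium and 0.53 in serum on the log2 CPM scale, a difference of -1.30 (permutation p = 0.0297, adjusted p = 0.273 over 215 microRNAs). For miR-335 in the VSD group, the myocardial value was 0.50 and the amniotic one -0.36, a difference of 0.86 (permutation p = 0.0960, adjusted p = 0.313 over 261 microRNAs). Of the 12 such differences computed for the members, 0 were called, against 3.45% of microRNAs for VSD myocardium and amniotic fluid, 0.465% for VSD myocardium and serum, 0% for VSD amniotic fluid and serum, and 1.15% for non-VSD myocardium and amniotic fluid. The largest non-VSD difference was that of miR-335, 0.77 higher in myocardium than in amniotic fluid (adjusted p = 0.424). A difference between heart and fluid was thus not shown for any member.

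Among themselves, several pairs of members varied together across hearts, between genes as well as within a hairpin. After each group was centred on its mean, miR-483-3p and miR-483-5p had a Pearson's r of 0.94 and a Spearman's rho of 0.86 over 21 hearts (permutation p = 1e-05, the smallest that 100000 permutations give, and 2e-05, adjusted p = 0.00019 and 0.00038 over the 19 pairs computed), and r was 0.89 without the 2 libraries farthest from the median. Between the hairpins, miR-483-3p and miR-675-3p had an r of 0.77 and a rho of 0.65 (permutation p = 0.0005 and 0.00421, adjusted p = 0.00348 and 0.0160), with r at 0.71 without 2 libraries. The miR-675 arms had an r of 0.66 and a rho of 0.76 (permutation p = 0.00495 and 0.00036, adjusted p = 0.0134 and 0.00342), with r at 0.65 without 2 libraries. miR-483-3p and miR-675-5p had an r of 0.61 and a rho of 0.51 (permutation p = 0.00869 and 0.0307, adjusted p = 0.0206 and 0.0583), and r fell to 0.40 without 2 libraries. With scaling by library size only, r was 0.43 for that pair (adjusted p = 0.136) and 0.51 for miR-483-5p and miR-675-5p (adjusted p = 0.0572), against a reported 0.67 (rho 0.61, permutation p = 0.00224 and 0.00743, adjusted p = 0.0106 and 0.0191, r at 0.50 without 2 libraries). miR-335, from another chromosome, also varied with some of these members. With miR-675-5p it had an r of 0.63 and a rho of 0.59 (permutation p = 0.00478 and 0.00802, adjusted p = 0.0134 and 0.0191), with r at 0.55 without 2 libraries. With miR-483-5p it had an r of 0.53 and a rho of 0.64 (permutation p = 0.0247 and 0.00411, adjusted p = 0.0469 and 0.0160), with r at 0.51 without 2 libraries and at 0.31 (adjusted p = 0.295) with scaling by library size only. With miR-483-3p it had an r of 0.40 and a rho of 0.42 (permutation p = 0.105 and 0.0786, adjusted p = 0.167 and 0.115), with r at 0.32 without 2 libraries. In amniotic fluid the miR-483 arms had an r of 0.58 and a rho of 0.55 (permutation p = 0.0166 and 0.0148, adjusted p = 0.0350 and 0.0312), with r at 0.60 without 2 libraries. In serum they had an r of 0.77 and a rho of 0.80 over 14 samples (permutation p = 0.00355 and 0.00141, adjusted p = 0.0134 and 0.00893), with r at 0.72 without 2 libraries. No other pair of members in amniotic fluid or serum passed the adjusted test. These values share the library totals, and tissue composition differs between libraries, so they describe libraries and not cells. The share of all microRNA pairs with such values was not computed, and several microRNAs outside the list ran closer to a member, as given next. The correlations are therefore not shown to be particular to the members.

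The microRNAs whose levels ran most like those of a member were then listed by the same measure, r of group-centred log2 CPM, as a description without a test. In myocardium, over 21 samples and 483 microRNAs, miR-483-3p was followed by miR-483-5p (0.94), miR-133b-3p (0.89) and miR-378b (0.85), and miR-483-5p by miR-483-3p, miR-133b-3p (0.91) and miR-378a-5p (0.90). miR-133b-3p is a muscle microRNA and belongs to the muscle markers above. miR-675-3p was nearest to miR-188-5p (0.79), miR-490-3p (0.78) and miR-500-3p (0.78), and miR-675-5p to miR-362-5p (0.83), miR-501-5p (0.80) and miR-30e-5p (0.78). miR-335 was nearest to miR-30e-5p (0.87), miR-3585-5p (0.85) and miR-29b-5p (0.83). The neighbours differed by tissue. In amniotic fluid, among 273 microRNAs, miR-483-3p was nearest to miR-125a-5p (0.76), miR-351-5p (0.74) and miR-125b-5p (0.62), and miR-483-5p to miR-205 (0.77), an epithelial microRNA, miR-328a-3p (0.77) and miR-296-3p (0.73). There, miR-675-3p ran with miR-221-3p (0.79), miR-412-5p (0.70) and miR-540-3p (0.65), and miR-335 with miR-361-5p (0.81), miR-19b-3p (0.77) and miR-148a-3p (0.66). In serum, over 14 samples and 219 microRNAs, miR-483-3p ran with miR-668 (0.88), miR-503-3p (0.86) and miR-433-3p (0.82), and miR-483-5p with miR-351-5p (0.90), miR-183-5p (0.81) and miR-351-3p (0.80).

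Other imprinted microRNAs and the let-7 family were read beside the members as counts. The Dlk1-Dio3 locus holds a large cluster of microRNAs that are expressed from the maternal copy, and 79 of them were on the list used. Of these, 71 were tested in VSD, 68 in non-VSD and 72 in all DMO-exposed myocardium, and 0 were called at an adjusted p under 0.05 in any of them. By the threshold of the study, miR-136-5p was higher in all 3 comparisons. By the same rule miR-376a-3p was higher in VSD and miR-136-3p lower in non-VSD myocardium. That threshold was met by 6.82%, 4.17% and 4.76% of all microRNAs in VSD, non-VSD and all DMO-exposed myocardium. The median log2 fold change of the tested ones was 0.09 in VSD myocardium, beside -0.05 for all microRNAs, and -0.30 in non-VSD myocardium, beside -0.07. Between VSD and non-VSD hearts 67 of 72 had a positive log2 fold change, with a median of 0.42 beside 0.02 for all microRNAs, and 0 were called at an adjusted p under 0.05 and 3 by the threshold of the study, which 5.18% of all microRNAs met. In VSD serum all 17 that passed the filter had a positive value, with a median of 0.94 beside -0.03 for all microRNAs. Without the filter, 49 of 62 did, with a median of 0.55. MicroRNAs of a cluster may vary together, so these counts of signs are a description without a test. Of the 17, 5 met the threshold of the study, which 4.57% of all microRNAs met, without passing edgeR's adjusted test. Of these 5, miR-433-3p was at 1.21 (SE 0.35, adjusted p = 0.15) and miR-540-3p at 1.28 (SE 0.39, adjusted p = 0.173). At an adjusted p under 0.05, DESeq2 called 1 of the 17, limma 0, and edgeR with a block for the replicate number 4. In VSD amniotic fluid, of 42 tested, 5 were lower and 1 higher by that threshold, which 6.94% of all microRNAs met, with miR-369-3p at -1.21 (SE 0.32, adjusted p = 0.174).

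By edgeR's quasi-likelihood test, the 5 microRNAs of the Gnas locus and miR-184, a second imprinted list, had 0 calls by either rule in every DMO comparison. In VSD amniotic fluid miR-184 was at 1.68 on the log2 scale (SE 0.93, adjusted p = 0.424). With its own test, the paper called miR-184 higher in that fluid and verified this by qRT-PCR. It also reported miR-184 as higher in human amniotic fluid with VSD, and a Gnas microRNA as higher in non-VSD rat fluid. Of the 9 let-7 microRNAs, whose sites H19 RNA carries, let-7f-5p fell by 0.43 on the log2 scale in all DMO-exposed myocardium (SE 0.12, adjusted p = 0.0263) and let-7e-5p fell by 1.04 in non-VSD amniotic fluid (SE 0.26, adjusted p = 0.0272). Both values were close to the limit of the test. For let-7f-5p the value was -0.09 with scaling by library size only (adjusted p = 0.741), and the call was lost in 13 of 21 fits that left out a single library (adjusted p up to 0.103). For let-7e-5p, which was at -1.08 under that scaling, it was lost in 6 of 14 (adjusted p up to 0.0752). Both calls were also lost by limma (adjusted p = 0.0505 for let-7f-5p and 0.0529 for let-7e-5p), without the filter (0.0900 and 0.0688) and with the replicate number as a block (0.0899 and 0.127). The other let-7 members did not pass the adjusted test in any DMO comparison. Members of that family differ by few bases, and how reads that match several were counted is not given in the sources used here. Between NC myocardium and NC serum, where 78.0% of all microRNAs were called (174 higher and 124 lower in myocardium), 31 of 49 Dlk1-Dio3 microRNAs tested were higher and 7 lower, 2 of 5 on the Gnas list were higher, and 5 of 9 let-7 microRNAs were higher and 2 lower.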

How the data were processed

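Small RNA libraries of 56 samples were analysed. The authors filtered the reads (bcl2fastq 2.19, FASTX-Toolkit) and deposited raw counts of reads per mature rat microRNA in 5 tables, and these counts were the values used. The aligner, the microRNA annotation, the genome build and whether molecular identifiers of the QIAseq kit were used are not given in the sources used here. The deposited tables also hold normalized signal or CPM columns made by the authors, and the authors' own log2 fold changes, ratios and p-values for each comparison, none of which were used. The submitters' processing notes name DESeq.

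The members were found by name. The members, the other lists and the rule for naming microRNAs were chosen with earlier results of these data known. The rule names all 5 members in every comparison, the 3 microRNAs most like each, and up to 4 called members of each other list. Groups were taken from the sample titles, and no libraries agreed within sampling noise. Counts were filtered by filterByExpr (minimum count 10, total 15), scaled by TMM and tested by edgeR's quasi-likelihood test (edgeR 4.0.16, R 4.3.3) with Benjamini-Hochberg adjustment over all microRNAs tested. Each DMO group was fitted with its 7 NC samples, and contrasts of both DMO groups in a fit of 21 samples. The arm ratio was log2((5p + 0.5)/(3p + 0.5)) in hairpins with at least 10 counts in every sample, tested by an exact two-sided permutation test. Correlations and differences between tissues used log2 CPM with a prior count of 2 and 100000 permutations. The adjustment of arm ratios over all hairpins, and of differences between tissues over all microRNAs, was set after the data had been seen, as was the fit with both DMO groups as a single group. The planned adjustment over the members alone is not given.

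Results were recomputed with limma 3.58.1 on log2(CPM + 1), with DESeq2 1.42.0, with scaling by library size alone, without the filter or with a minimum of 10 counts in each library, with other pseudocounts, with other groups fitted together, with a block for the replicate number, and without each sample. The tests were tried on simulated counts. Python 3.11.15, numpy 2.4.6, pandas 2.3.3, scipy 1.17.1 and matplotlib 3.10.9 were used for the rest. Intervals and limits of detection cover counting error only, and PCR reads are not independent molecules. The litter of a sample is not given. Samples with the same number in their titles did not deviate together in most comparisons (0 to 5 of 7 pairs with a correlation over 0.1), so the numbers were not taken as pairs. In myocardium some title numbers differ from those in the submitters' own sample labels, and a pairing by those labels was not checked.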

Additional observations from a re-analysis of the deposited data

Results flagged for a closer look

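In the 51 groups of 7 samples tested for a value far from the others, 4 values had a gap to the nearest sample, as a share of the whole range, above Dixon's limit of 0.568 for 7 samples. Chance gives such a gap in about 1 of 20 groups.

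Replicate 2 of the NC myocardium group was the lowest of its group for both miR-483 arms. For miR-483-3p its log2 CPM was 7.83 against a group median of 8.85 (gap share 0.617), and for miR-483-5p it was 6.84 against 8.01 (gap share 0.769). The same library had the lowest muscle and the highest epithelial markers of its group, and their part in these levels was not tested. In amniotic fluid, miR-675-5p was highest in non-VSD replicate 7, with a log2 CPM of 7.86 against a group median of 3.69, which stands for libraries at 0 (gap share 0.581). miR-335 was lowest in VSD replicate 2 of amniotic fluid, at 8.76 against a group median of 11.07 (gap share 0.633). These 2 amniotic libraries are also those with the highest share of miR-483-5p in their groups.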

How the results depend on the processing

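Of 287 log2 fold changes of members refitted under an alternative other than leaving out a sample, 259 kept their direction and their side of an adjusted p of 0.05. The values that follow are log2 fold changes against NC unless stated otherwise. With library size only, the VSD myocardium values of miR-483-5p, miR-675-3p and miR-675-5p were 0.12, 0.19 and 0.34, the non-VSD value of miR-483-3p was 0.0605, and in all DMO-exposed myocardium those of miR-483-5p, miR-675-3p and miR-675-5p were 0.32, 0.22 and 0.15, all of the opposite sign to the reported ones. There, 1 member (miR-335) was called in each of these 3 comparisons, the difference of non-VSD miR-483-3p changes between myocardium and amniotic fluid was 0.10, and the myocardial correlations of miR-483-3p and miR-483-5p with miR-675-5p and of miR-483-5p with miR-335 were 0.43, 0.51 and 0.31 and no longer passed. With both DMO groups as a single group, myocardial miR-483-5p was 0.00569. DESeq2 called 1 member in non-VSD myocardium and 1 in non-VSD amniotic fluid, and gave 0.0205 for miR-335 in all DMO-exposed fluid and -0.00223 for miR-483-3p between VSD and non-VSD fluid. By limma, 0 members met the threshold of the study in non-VSD fluid, where miR-483-3p, miR-675-3p and miR-335 were at -0.00538, -0.66 and -0.0182, miR-483-3p was at -0.0358 in all DMO-exposed fluid, and miR-675-3p was at 0.20 between VSD and non-VSD fluid. With at least 10 counts in every sample, miR-675-5p was 0.0624 in VSD myocardium, miR-335 was 0.0792 in all DMO-exposed fluid, miR-483-3p was -0.0117 between VSD and non-VSD fluid (-0.0274 with only those groups in the fit), and between NC myocardium and serum 1 member was called by either rule, with miR-483-5p at 0.31, since fewer members were tested.

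Under the replicate block, 0 members met the threshold of the study in non-VSD fluid (miR-483-5p 0.80, adjusted p = 0.319), miR-675-3p was -0.0919 and miR-335 -0.0522 there, and the members by that threshold between NC myocardium and serum went from 2 to 3. No other count of members called changed. The block took the count of all microRNAs called from 2 to 0 in VSD, 1 to 0 in non-VSD and 41 to 5 in all DMO-exposed myocardium, from 12 to 2 in non-VSD fluid and from 0 to 5 in serum. In no pair of groups did every sample correlate best with its own number (at most 2 of 7).

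When single samples were left out, the miR-483 arm ratio differed by 0.36 to 0.48 in VSD against NC myocardium, by -0.12 to 0.0105 between VSD and non-VSD myocardium and by -0.00862 to 0.34 in serum. In myocardium, miR-675-5p ranged from -0.29 to 0.0246 (VSD), miR-675-3p from -0.0519 to 0.12 (non-VSD), miR-483-5p from -0.10 to 0.0957 and miR-675-3p from -0.20 to 0.0106 (all DMO-exposed, 0 to 1 members called), and miR-335 from -0.38 to 0.0333 (VSD against non-VSD). In amniotic fluid, miR-335, miR-675-3p and miR-483-3p ranged from -0.24 to 0.23, -0.27 to 0.45 and -0.0253 to 0.40 (non-VSD, 0 to 1 members by the threshold of the study), miR-335 and miR-675-3p from -0.25 to 0.0473 and -0.49 to 0.085 (all DMO-exposed), and miR-483-3p, miR-335 and miR-483-5p from -0.22 to 0.30, -0.41 to 0.0767 and -0.81 to 0.0913 (VSD against non-VSD). The cause of these changes was not tested.

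The number of all microRNAs called at an adjusted p under 0.05 varied more than the members did. It was 2 in VSD and 1 in non-VSD myocardium, and by DESeq2 46 and 48. Over all alternatives it ran from 0 to 77 in VSD myocardium, where 77 were called without NC replicate 2, from 0 to 48 in non-VSD myocardium, from 5 to 66 (reported 41) in all DMO-exposed myocardium and from 0 to 29 (reported 12) in non-VSD fluid. In VSD fluid, all DMO-exposed fluid, VSD against non-VSD fluid and serum it was at most 1, 16, 6 and 5, and between NC myocardium and serum from 141 to 365. Depth limits miR-675-5p in both fluids and miR-335 and miR-675-3p in serum.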
